A study of Danio rerio with 16 samples.

Results

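The zebrafish cyp1 family consists of the cytochrome P450 family 1 monooxygenases, and 5 genes of this family were followed here: cyp1a (ENSDARG00000098315), cyp1b1 (ENSDARG00000068934), cyp1c1 (ENSDARG00000101195), cyp1c2 (ENSDARG00000101789) and cyp1d1 (ENSDARG00000035569). The first 4 were taken by their Ensembl identifiers and cyp1d1 by its symbol. They are 5 of the 32266 genes in the count table, and all 5 were among the 20630 genes that passed the low-count filter. RNA came from whole Tropical 5D zebrafish embryos 48 h after fertilization (48 hpf), with 16 samples in 4 groups of 4 biological replicates, each a pool of 20 embryos. The groups were slincR morphants exposed to 2,3,7,8-tetrachlorodibenzo-p-dioxin (TCDD), slincR morphants in dimethyl sulfoxide (DMSO), control morphants exposed to TCDD, and control morphants in DMSO. All embryos therefore carried a morpholino, an antisense oligomer whose effect is transient, either against the long noncoding RNA slincR or a control. Exposure to 1 ng/mL TCDD or to the vehicle (0.1% DMSO) lasted 1 h and began at about 6 hpf, so the RNA was taken long after the exposure ended. The treatment protocol also states a molar concentration that does not match 1 ng/mL, so the dose is uncertain. The gene table pairs no identifier with slincR, and its level was not analysed here.

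Cytochrome P450 monooxygenases are heme enzymes that insert an oxygen atom into their substrates with electrons passed on by partner proteins. Family 1 enzymes oxidise planar aromatic compounds, and cyp1a in particular is the classical marker of aryl hydrocarbon receptor (AHR) activity. In the textbook pathway a ligand such as TCDD binds the AHR in the cytoplasm, the receptor enters the nucleus, pairs with ARNT and activates genes with its response elements. In zebrafish ahr2 is the main receptor for TCDD, and cyp1d1 is known as a member that does not respond to AHR ligands as the others do. Whole embryos were pooled here, and in such bulk samples more expressing cells and more RNA per cell cannot be told apart.

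TCDD raised 4 of the 5 family members in both kinds of morphant: cyp1a most, then cyp1c1, cyp1c2 and cyp1b1. In slincR morphants the fitted folds were 166, 36.4, 19.6 and 10.0 in that order, and in control morphants 154, 37.4, 27.7 and 9.99. The fifth member, cyp1d1, did not pass the test in either morphant, with folds of 0.941 in slincR morphants and 0.983 in control morphants. Across all genes tested, 0.310% were called higher with TCDD in slincR morphants and 0.470% in control morphants. Calls rest on the quasi-likelihood test of edgeR, at a p below 0.05 after Benjamini-Hochberg (BH) adjustment over all 20630 genes. The 4 induced members had the 4 smallest p-values of all genes in each morphant.

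Levels are given as CPM, the counts scaled to a fixed library size. They compare 1 gene between groups, and because they are not adjusted for transcript length they do not compare genes. For cyp1a, the enzyme used most often as a readout of AHR activation, the slincR morphants had 1914, 1772, 1618 and 2095 CPM in TCDD, against 12.7, 10.2, 11.6 and 9.96 CPM in DMSO. Control morphants had 1837, 1986, 2038 and 1937 CPM in TCDD, against 9.99, 13.8, 14.1 and 12.7 CPM in DMSO. Every TCDD sample was far above every DMSO sample, and the slincR and control morphants overlapped within each agent. The log2 fold change of TCDD over DMSO was 7.38 ± 0.13 in slincR morphants (SE, n = 4 per group, edgeR adjusted p = 2.1e-22) and 7.27 ± 0.13 in control morphants (edgeR adjusted p = 2.7e-22). The 95% intervals of the fold ran from 138 to 200.7 in slincR morphants and from 128 to 186 in control morphants. The counts behind the DMSO values were low but not sparse, at 207 to 224 reads per library in slincR morphants and 179 to 269 in control morphants.

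cyp1c1 and cyp1c2 belong to the cyp1c subfamily of fish. For cyp1c1, slincR morphants had 544, 461, 438 and 405 CPM in TCDD, against 10.2, 13.5, 14.2 and 12.8 CPM in DMSO. Control morphants had 489.7, 477, 513 and 568 CPM in TCDD, against 13.1, 13.9, 13.4 and 14.3 CPM in DMSO. All 8 TCDD samples lay far above all 8 DMSO samples. On the log2 scale TCDD exceeded DMSO by 5.18 ± 0.12 in slincR morphants (edgeR adjusted p = 2.8e-20) and 5.22 ± 0.12 in control morphants (edgeR adjusted p = 2.5e-20), with 95% intervals of 4.94 to 5.42 in slincR morphants and 4.98 to 5.47 in control morphants.

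For cyp1c2, slincR morphants had 102, 73.2, 76.8 and 103 CPM in TCDD, against 4.11, 4.40, 6.13 and 3.56 CPM in DMSO. Control morphants had 122, 109, 114 and 97.0 CPM in TCDD, against 3.85, 4.05, 3.95 and 4.05 CPM in DMSO. TCDD and DMSO samples did not overlap, while within TCDD the highest slincR samples lay above the lowest control sample. The rise on the log2 scale was 4.29 ± 0.15 in slincR morphants (edgeR adjusted p = 4.4e-16) and 4.79 ± 0.15 in control morphants (edgeR adjusted p = 7.1e-17). The intervals of the fold were 15.8 to 24.2 in slincR morphants and 22.2 to 34.5 in control morphants. In the RefSeq gene order of assembly GRCz12tu cyp1c1 and cyp1c2 are next to each other. Reads that align to both paralogs can be lost or assigned to either one, so the counts of this pair may be less certain than those of cyp1a. How alike cyp1c1 and cyp1c2 are in sequence was not measured.

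cyp1b1 is an AHR-inducible monooxygenase that in vertebrates is also expressed in the developing eye. In slincR morphants it had 101, 88.1, 89.3 and 102 CPM in TCDD, against 11.7, 11.4, 7.65 and 7.34 CPM in DMSO. In control morphants it had 103, 99.6, 88.1 and 111 CPM in TCDD, against 11.05, 9.65, 10.3 and 9.26 CPM in DMSO. Again no TCDD sample overlapped a DMSO sample, and the slincR and control values intermingled. TCDD over DMSO gave a log2 fold change of 3.32 ± 0.13 in slincR morphants (edgeR adjusted p = 7.9e-15) and 3.32 ± 0.13 in control morphants (edgeR adjusted p = 8.5e-15).

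cyp1d1 had 22.1, 20.1, 18.5 and 21.3 CPM in TCDD and 18.9, 22.4, 22.7 and 22.9 CPM in DMSO in slincR morphants. In control morphants it had 17.4, 19.7, 19.0 and 21.7 CPM in TCDD and 19.3, 19.0, 20.9 and 20.0 CPM in DMSO. The 4 groups overlapped one another. The log2 fold change of TCDD over DMSO was −0.09 ± 0.10 in slincR morphants (95% interval −0.30 to 0.13, edgeR adjusted p = 0.966) and −0.03 ± 0.10 in control morphants (−0.24 to 0.19, edgeR adjusted p = 0.956). A change as large as that of any induced member lies far outside these intervals.

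**Figure D1:**
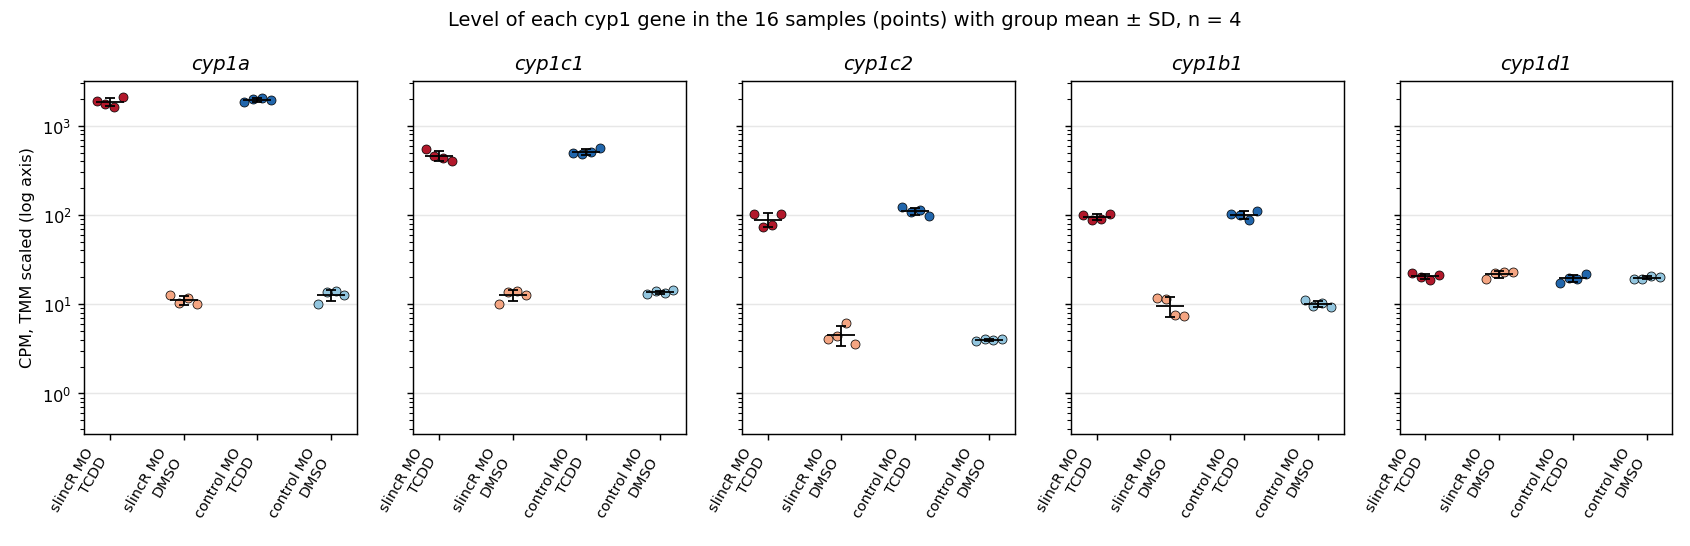
Level of each cyp1 gene in CPM (log axis) in every sample, by group, with points for samples and bars for the group mean ± SD (n = 4). The 4 induced genes separate TCDD from DMSO in both morphants without overlap, while cyp1d1 stays between 17.4 and 22.9 CPM in all 16 samples. The share of all genes that separate in this way was not counted.

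The spread among replicates was small beside the effect of TCDD. The coefficient of variation of cyp1a was 10.98% in slincR TCDD samples, 11.6% in slincR DMSO samples, 4.38% in control TCDD samples and 14.9% in control DMSO samples. That of cyp1c2 reached 18.1% and 24.4% in slincR morphants in TCDD and DMSO, against 9.57% and 2.47% in control morphants. For cyp1b1 it was widest in slincR DMSO samples, at 24.8%. As a family, the 5 genes took 0.254 ± 0.0232% of all gene counts in slincR TCDD samples and 0.270 ± 0.0102% in control TCDD samples (SD, n = 4 each). In DMSO the share was 0.00595 ± 0.000353% in slincR morphants and 0.00596 ± 0.000357% in control morphants.

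The makeup of the family transcripts changed along with their amount. cyp1a made up 73.4 ± 2.42% of the family's counts in slincR TCDD samples, against 18.7 ± 2.41% in slincR DMSO samples. In control morphants cyp1a made up 72.4 ± 1.47% in TCDD, against 21.0 ± 2.48% in DMSO. cyp1d1 went the other way as a share, at 0.815 ± 0.0237% in slincR TCDD samples against 36.5 ± 3.15% in slincR DMSO samples, and at 0.722 ± 0.0530% in control TCDD samples against 32.9 ± 0.968% in control DMSO samples. The level of cyp1d1 itself averaged 20.5 CPM in TCDD and 21.7 CPM in DMSO in slincR morphants. In control morphants the means were 19.4 CPM in TCDD and 19.8 CPM in DMSO. Its share therefore fell because the other members rose. These shares depend on transcript length and are read between groups only.

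The 4 induced genes were raised by unequal factors, as ratios within each sample show. The log2 ratio of cyp1a to cyp1b1, from CPM with a pseudocount of 0.5, averaged 4.27 in TCDD against 0.24 in DMSO in slincR morphants, and 4.27 in TCDD against 0.31 in DMSO in control morphants. That of cyp1a to cyp1c1 averaged 2.002 against −0.18 in slincR morphants and 1.93 against −0.12 in control morphants. The smallest shifts were for cyp1c1 to cyp1c2, at 2.38 against 1.40 in slincR morphants and 2.21 against 1.66 in control morphants, and for cyp1b1 to cyp1c2, at 0.11 against 0.98 in slincR morphants and −0.13 against 1.23 in control morphants. With a pseudocount of 2 CPM the pair of cyp1b1 and cyp1c2 in slincR morphants no longer passed (exact permutation p = 0.0571). For all 10 pairs of members, in each morphant, the 4 TCDD samples did not overlap the 4 DMSO samples. How often this holds for pairs of other genes was not counted. In pairs with cyp1d1 this repeats the induction of the other member, so only pairs of induced genes bear on the unequal factors. The two-sided exact permutation test gave p = 0.0286 for each pair, also after BH adjustment over 20 pairs, which is the smallest p that 4 samples against 4 allow. A ratio shows unequal change and not which gene moved.

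**Figure D2:**
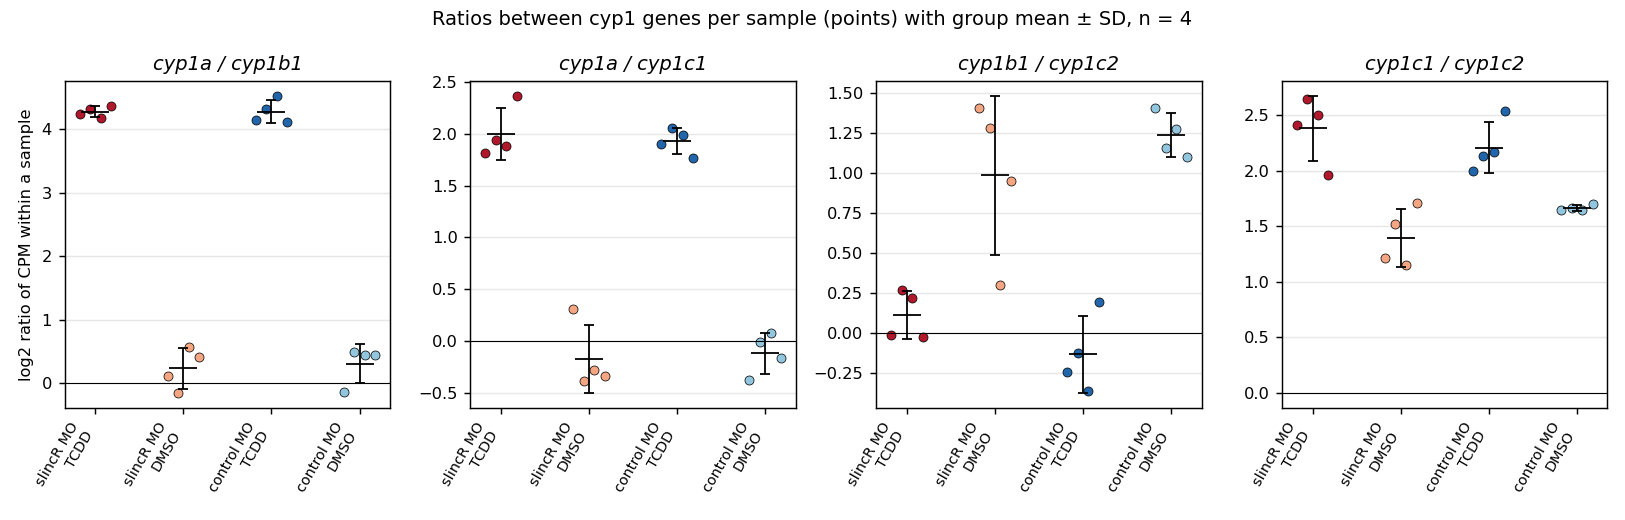
Log2 ratio of CPM within a sample for 4 pairs of cyp1 genes, by group, with points for samples and bars for the group mean ± SD (n = 4). TCDD and DMSO samples are apart in both morphants for each pair drawn, while slincR and control morphants overlap within each agent.

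The second question was whether the slincR morpholino changed the family. None of the 5 members was called between slincR and control morphants, either in TCDD, where 0.446% of all genes were called, or in DMSO, where 0.150% were. At an unadjusted p under 0.05, edgeR picked 1 member in TCDD (cyp1c2) and 0 in DMSO. Over all genes tested, 10.8% in TCDD and 9.11% in DMSO had such a p. After adjustment, DESeq2 and limma-voom called 0 members in either agent. For cyp1a the log2 difference of slincR over control morphants was −0.08 ± 0.10 in TCDD (95% interval −0.28 to 0.12) and −0.19 ± 0.11 in DMSO (−0.43 to 0.05). For cyp1b1 it was −0.08 ± 0.12 in TCDD (−0.32 to 0.16) and −0.08 ± 0.14 in DMSO (−0.36 to 0.20). For cyp1c1 it was −0.15 ± 0.09 in TCDD (−0.34 to 0.05) and −0.11 ± 0.11 in DMSO (−0.34 to 0.12).

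cyp1c2 had the widest gap between morphants. Its mean level in TCDD was 88.8 ± 16.0 CPM in slincR morphants and 110.4 ± 10.6 CPM in control morphants (SD, n = 4 each), with overlapping samples. The log2 difference was −0.31 ± 0.12 (95% interval −0.56 to −0.06), which did not pass the threshold (edgeR adjusted p = 0.323). In DMSO it was 0.19 ± 0.17 (−0.16 to 0.54), similar in size to the −0.19 ± 0.11 of cyp1a. For cyp1d1 the difference was 0.07 ± 0.10 in TCDD and 0.14 ± 0.10 in DMSO.

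The TCDD responses themselves were compared as slincR minus control morphants. No gene of the 20630 was called in that contrast (0%). An unadjusted p under 0.05 was found for 617 genes, or 2.99%, where 5% would be found with no difference at all, and DESeq2 and limma-voom called 0 genes as well. The difference was 0.11 ± 0.15 for cyp1a (95% interval −0.20 to 0.42), 0.00 ± 0.17 for cyp1b1 (−0.36 to 0.36), −0.04 ± 0.15 for cyp1c1 (−0.34 to 0.26) and −0.06 ± 0.15 for cyp1d1 (−0.36 to 0.24). For cyp1c2 it was −0.50 ± 0.21 (−0.93 to −0.07, unadjusted p = 0.0242, edgeR adjusted p = 1). These intervals leave room for differences in response of up to 0.42 for cyp1a and beyond that for cyp1c2. Of the ratios between members, 0 of 10 were called between slincR and control morphants in TCDD and 0 of 10 in DMSO by the exact permutation test, with a smallest adjusted p of 0.254. In DMSO 1 of these ratios did not overlap between morphants: cyp1c1 to cyp1d1 averaged −0.76 in slincR morphants and −0.52 in control morphants (exact permutation p = 0.0286, adjusted p = 0.254).

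**Figure D3:**
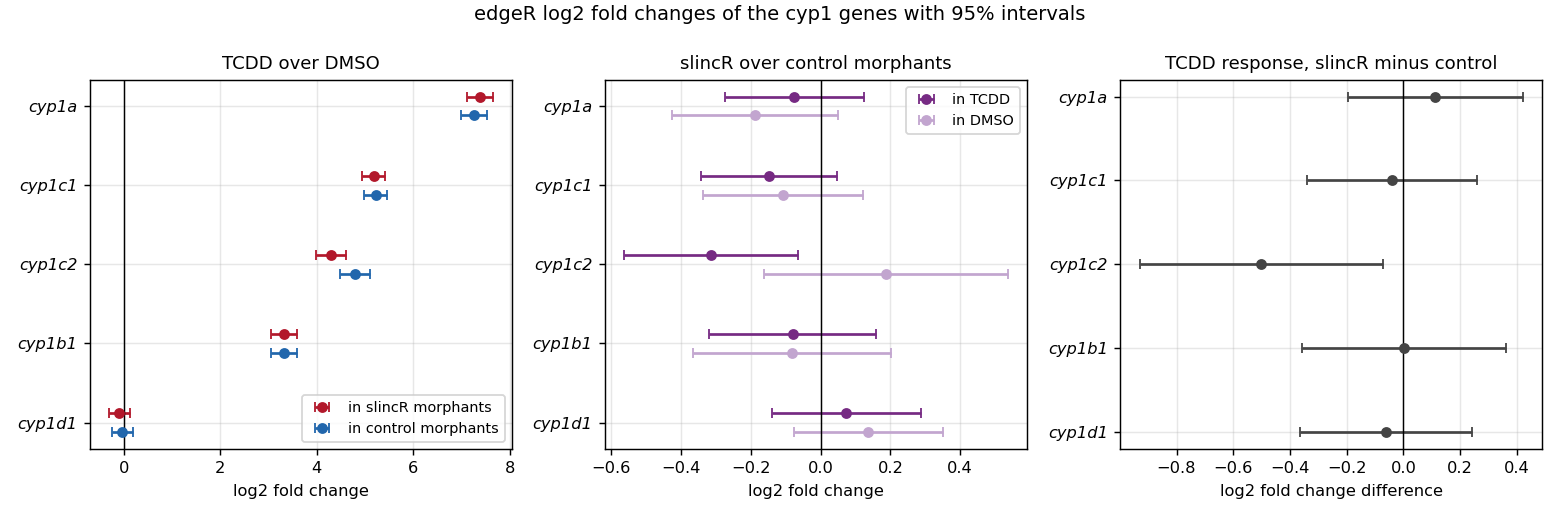
Fitted edgeR log2 fold changes of the 5 cyp1 genes (points) with 95% intervals (bars), for TCDD over DMSO in each morphant, for slincR over control morphants in each agent, and for the difference of the TCDD responses. TCDD over DMSO runs from 7.38 in slincR morphants and 7.27 in control morphants for cyp1a down to −0.09 and −0.03 for cyp1d1, and among the other contrasts the intervals of cyp1c2 in TCDD (−0.56 to −0.06) and of its difference of responses (−0.93 to −0.07) lie below 0.

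Ordered by level, each of the 4 induced genes had both TCDD groups above both DMSO groups, and within an agent the 2 morphants did not differ beyond the test. For cyp1d1 none of the contrasts between groups passed the edgeR test.

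The genes most like each member were ranked by Pearson's r of log2 CPM over all 16 samples, a measure that for the induced genes is set mostly by the gap between TCDD and DMSO samples. For cyp1a these were ugt1b1, foxq1a and fgf7 (r = 0.99 each), ahrra (0.99) and ugt1b5 (0.98). cyp1c1 and cyp1c2 had the same 5 genes at the top, and cyp1b1 shared ugt1b1, foxq1a and ahrra with them and added ahrrb and foxf2a. The 4 induced members had r between 0.99 and 1.00 with each other, and cyp1d1 had r between −0.28 and −0.23 with them. Taken as deviations from the group means, the likeness of cyp1a with the other induced members was far weaker, at 0.11 with cyp1b1, −0.17 with cyp1c1 and 0.39 with cyp1c2. Over all pairs of members these values ran from −0.30 (cyp1b1 with cyp1c1) to 0.66 (cyp1c1 with cyp1d1). The genes most like cyp1d1 were UBFD1 (0.80), DYRK2 (0.78), tlcd1 and TNNI3K (0.77 each) and PRICKLE2 (0.75). These lists depend on the measure: ranked by Spearman's rho instead, 1 of the 5 genes was shared for cyp1a, 1 for cyp1b1, 0 for cyp1c1, 0 for cyp1c2 and 3 for cyp1d1.

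Of 13 listed genes of the AHR machinery, 10 were matched by symbol and 9 were tested. Called higher in both morphants were 4: the repressors ahrra and ahrrb, the receptor ahr2, and tiparp, which limits AHR activity. Over all genes tested, 0.310% were called higher in slincR and 0.470% in control morphants. The list was chosen with earlier results of these data known. ahr2 had 267, 264, 261 and 252 CPM in slincR TCDD samples, against 125, 128, 133 and 149 CPM in slincR DMSO samples. Control morphants had 247, 262, 218 and 253 CPM in TCDD, against 136, 119, 129 and 122 CPM in DMSO. No TCDD sample of ahr2 overlapped a DMSO sample. Its log2 fold change was 0.96 ± 0.08 in slincR morphants (edgeR adjusted p = 2.3e-08) and 0.96 ± 0.08 in control morphants (edgeR adjusted p = 2.8e-08). ahrra was nearly absent without TCDD, with 134, 168, 149 and 219 reads in slincR TCDD libraries against 2, 4, 5 and 1 in slincR DMSO libraries, and 204, 149, 264 and 198 reads in control TCDD libraries against 5, 4, 7 and 3 in control DMSO libraries. For ahrrb the slincR libraries held 159, 103, 108 and 132 reads in TCDD against 4, 5, 1 and 1 in DMSO. The control libraries held 106, 131, 100 and 150 reads in TCDD against 9, 4, 9 and 1 in DMSO. Both ahrra and ahrrb passed the low-count filter only through their TCDD samples, so the count of 4 calls is not independent of that filter. The median log2 fold change over the 9 genes was 0.06 in slincR morphants and 0.50 in control morphants, against 0.00 over all genes. Taken gene by gene, the difference of responses (slincR minus control) had a median of 0.05, with 2 of the 9 below 0 and 0 called.

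Of 25 listed AHR-inducible conjugation and redox enzymes, which act on the products of the monooxygenases, 17 were matched by symbol and 12 were tested. Called higher in both morphants were 3. These were the glucuronosyltransferases ugt1b1, ugt1b5 and ugt1a6. The name ugt1a6 is the authors' symbol, and that gene stood in the list under another name. ugt1b1 changed by 2.06 ± 0.10 in slincR morphants (edgeR adjusted p = 2.7e-13) and 2.02 ± 0.10 in control morphants (edgeR adjusted p = 4.7e-13). ugt1b5 changed by 1.67 ± 0.10 in slincR and 1.68 ± 0.10 in control morphants, and ugt1a6 by 0.67 ± 0.12 in slincR and 0.80 ± 0.12 in control morphants. Among all genes tested, 0.310% were called higher in slincR and 0.470% in control morphants. The median of the list was 0.13 in slincR morphants and 0.23 in control morphants. Taken gene by gene, the difference of responses had a median of −0.03, with 7 of the 12 below 0 and 0 called.

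Over all genes tested, 0.310% were called higher with TCDD in slincR and 0.470% in control morphants. Of 13 tested proteins of P450 electron transfer, 1 was called higher in both morphants. This was cyb5a, a cytochrome b5 that can pass an electron to P450 enzymes. It had 233, 198, 185 and 171 CPM in slincR TCDD samples, against 64.9, 85.1, 74.6 and 89.9 CPM in slincR DMSO samples. Control morphants had 230.2, 208, 208 and 188 CPM in TCDD, against 67.2, 65.0, 86.0 and 82.2 CPM in DMSO. The log2 fold change was 1.32 ± 0.11 in slincR morphants (edgeR adjusted p = 4.8e-08) and 1.47 ± 0.11 in control morphants (edgeR adjusted p = 6.7e-09). POR, the reductase that supplies microsomal P450 enzymes with electrons, was picked out after its values were seen. It had −0.06 ± 0.08 in slincR morphants and 0.01 ± 0.08 in control morphants and was not called.

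Of 11 tested genes of heme synthesis and breakdown, none was called by edgeR in either morphant, with 1 in slincR and 4 in control morphants at an unadjusted p under 0.05. Over all 20630 genes, 6.91% in slincR and 11.2% in control morphants had such a p. DESeq2 called 0 in slincR and 1 in control morphants, and limma-voom called 0 in both. DESeq2 also called more genes than edgeR over all genes in both morphants. The smallest p belonged to alas2, the erythroid first enzyme of heme synthesis, at −0.40 in slincR morphants and −0.50 in control morphants (edgeR adjusted p = 0.309 in slincR and 0.0876 in control morphants). alas2 is also among the erythroid markers. Summed over 5 erythroid markers, the level was 1042 to 1608 CPM in slincR TCDD samples against 1577 to 1835 CPM in slincR DMSO samples, and 1308 to 1676 CPM in control TCDD samples against 1738 to 2208 CPM in control DMSO samples. Of these 5, 4 had a log2 fold change below 0 in each morphant. The highest value was 0.01 in slincR and 0.65 in control morphants. The part of the summed erythroid level in the heme values was not tested.

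The other cytochrome P450 families were looked at beside the share of calls over all genes. Of 80 genes in other P450 families, 65 were tested, and in slincR morphants edgeR called 0 (7 at an unadjusted p under 0.05, while DESeq2 called 1 and limma-voom 0). In control morphants edgeR called 1 (5 at an unadjusted p under 0.05), DESeq2 2 and limma-voom 0. These counts take calls in either direction. Of the 20630 genes tested, edgeR called 79 in slincR and 128 in control morphants in either direction. Those called higher were 0.310% in slincR and 0.470% in control morphants. DESeq2 called more genes than edgeR in both morphants. An unadjusted p under 0.05 was found for 6.91% of all genes in slincR and 11.2% in control morphants. The median log2 fold change over the 65 P450 genes was −0.03 in slincR morphants and −0.02 in control morphants. The range was −1.27 to 1.06 in slincR morphants and −1.13 to 1.29 in control morphants. The gene called in control morphants was cyp24a1, a hydroxylase that inactivates vitamin D. It had 3.38, 2.62, 3.73 and 1.52 CPM in control TCDD samples, against 0.893, 1.28, 1.05 and 1.33 CPM in control DMSO samples. Its log2 fold change was 1.29 ± 0.29 (edgeR adjusted p = 0.0336), and it was 0.50 ± 0.26 in slincR morphants (edgeR adjusted p = 0.779). The difference between the responses was −0.80 ± 0.39 (edgeR adjusted p = 1). The call was lost in 10 of 25 alternatives, with adjusted p of 0.0527 to 0.145, among them the fits without any 1 of the 4 control DMSO libraries and without control TCDD replicate 1, 2 or 3. In slincR morphants cyp24a1 had 3.01, 3.48, 3.17 and 3.24 CPM in TCDD, against 1.79, 3.06, 2.60 and 1.69 CPM in DMSO.

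**Figure D4:**
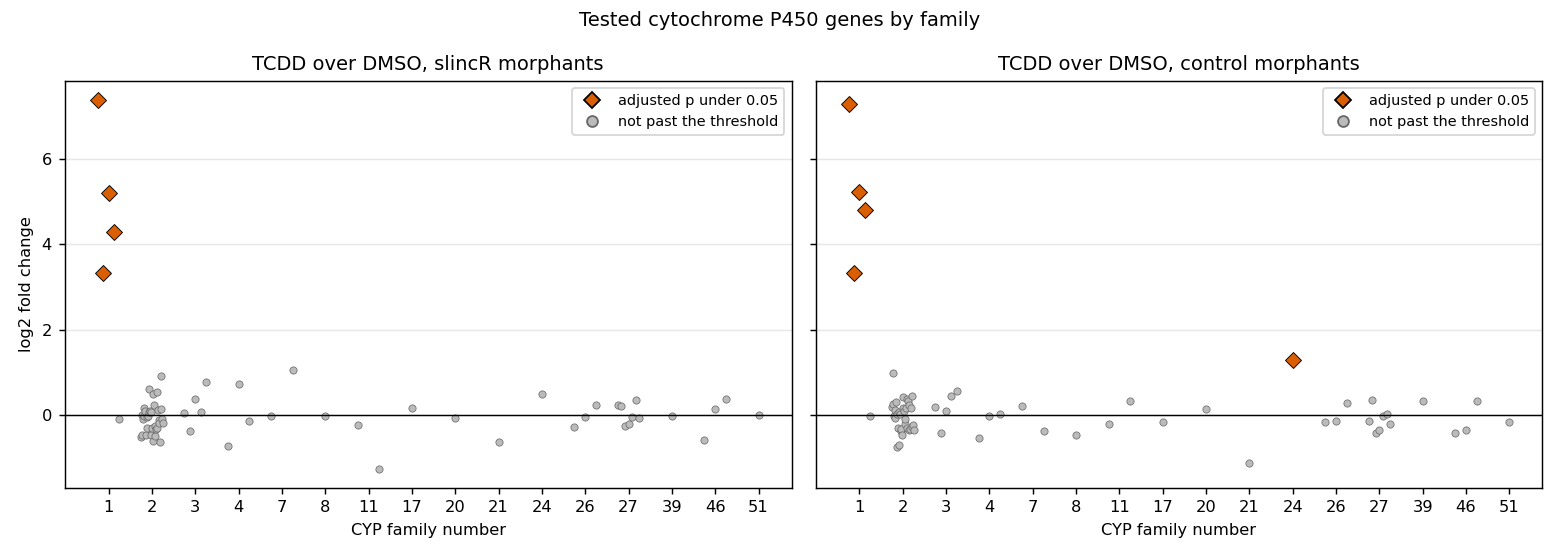
Log2 fold change of TCDD over DMSO for cyp1 genes and for the tested genes of the other P450 families, in slincR and control morphants. The 4 induced cyp1 genes lie at 3.32 or above, while the other families lie between −1.27 and 1.29.

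Genes on either side of the members were looked up in the RefSeq order of GRCz12tu, 2 on each side, after the values had been seen. The neighbours of cyp1a were not matched to the gene table. Beyond the cyp1c pair, edgeR called 1 of the neighbours that were matched and tested, in control morphants only. Over all genes, 0.470% were called higher there. The neighbour called was gchfr, next to cyp1c2, a regulator of GTP cyclohydrolase. Tested and not called were polr1b, nanp, rmdn2 and cdc42ep3 near cyp1b1, dnajc17 near cyp1c2, and tmc1, the only neighbour of cyp1d1 tested. gchfr had 11.1, 6.71, 9.50 and 9.20 CPM in slincR TCDD samples, against 3.10, 6.03, 5.21 and 5.34 CPM in slincR DMSO samples. Control morphants had 8.58, 9.11, 7.79 and 8.17 CPM in TCDD, against 5.69, 2.36, 3.03 and 5.45 CPM in DMSO. TCDD samples lay above DMSO samples in both. The log2 fold change was 0.88 ± 0.23 in slincR morphants (edgeR adjusted p = 0.112) and 1.03 ± 0.24 in control morphants (edgeR adjusted p = 0.0397), and the call was lost in 11 of 25 alternatives, with adjusted p of 0.0522 to 0.130. Among these were the fits without control DMSO replicate 2 or 3, any 1 of the 4 control TCDD libraries, slincR DMSO replicate 3 or slincR TCDD replicate 3. In slincR morphants gchfr passed with DESeq2 (adjusted p = 0.0259) and with only the 8 samples of the contrast in the edgeR fit (adjusted p = 0.0389). Whether reads of the strongly raised cyp1c2 were counted in it was not tested.

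The libraries held 14977267 to 23142081 gene counts. ConMO_DMSO 4, a control DMSO library, scored −63.4 on principal component 1, and the other libraries scored −17.7 to 19.4. Without it the control log2 fold changes were 7.27 for cyp1a, 5.25 for cyp1c1, 4.80 for cyp1c2, 3.28 for cyp1b1 and −0.02 for cyp1d1, and the same 4 members were called. Of 62 markers of 7 tissues, 47 were tested, and the others were not matched by symbol or did not pass the low-count filter. With TCDD edgeR called 0 in slincR morphants, with 10 at an unadjusted p under 0.05, while DESeq2 called 3 and limma-voom 1. Those of DESeq2 were 1 endothelial, 1 keratinocyte and 1 liver marker, and that of limma-voom was endothelial. In control morphants edgeR called 1, with 12 at an unadjusted p under 0.05. There DESeq2 called 3, of which 2 were erythroid and 1 endothelial, and limma-voom called 1, which was erythroid. Over all genes DESeq2 called more than edgeR in both morphants, and its totals are given with the processing alternatives. The totals of limma-voom are not given, so its marker counts have no share beside them. Of all 20630 genes, edgeR called 79 in slincR and 128 in control morphants, counting both directions. Over all genes tested, 6.91% in slincR and 11.2% in control morphants had an unadjusted p under 0.05. The share among the 47 markers was higher in both morphants. Whether a change of tissue makeup lies behind this was not tested. The edgeR call was the erythroid gene cahz at −0.50 (edgeR adjusted p = 0.0362), a call lost in 9 of 25 alternatives, with adjusted p of 0.0509 to 0.131. Of the left-out libraries, control DMSO replicates 1 and 4, control TCDD replicates 2, 3 and 4, slincR DMSO replicate 2 and slincR TCDD replicates 2 and 3 ended it. In the authors' deposited table the log2 fold changes were 7.38 for cyp1a, 5.19 for cyp1c1, 4.29 for cyp1c2 and 3.32 for cyp1b1 in slincR morphants, and 7.27, 5.23, 4.79 and 3.32 in control morphants. cyp1d1 is in neither of the authors' lists.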

How the data were processed

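Poly-A-selected RNA of 16 pools of embryos was sequenced as paired reads, per the labels' protocols. The authors deposited raw counts per Ensembl gene; the submitters' processing notes name TopHat, HTSeq, FastQC, SAMtools and edgeR, with no role given, and the build GRCz10. Versions and strand handling: not given in the sources used here. Reads of antisense and overlapping genes may therefore be mixed. Reads outside genes (12.8% to 16.1% of entries), not aligned uniquely (24.4% to 29.4%) and ambiguous (0.274% to 0.332%) were left out. Per the file headers, the authors' lists hold log2 fold changes, an F score and a p-value, and a column the authors deposited holds the −log10 of the adjusted p-value.

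Counts were normalised by TMM, filtered with filterByExpr (minimum count 10) and fitted with edgeR 4.0.16 in R 4.3.3 over all 16 samples, with a mean per group and 12 residual degrees of freedom. The standard error is the log2 fold change divided by the square root of F. Log2 CPM for correlations used a prior count of 2. Adjusted p-values run over 20630 genes. The gene table named 26437 of 32266 identifiers. Ratios of members were tested by exact permutation. In simulated counts for TCDD against DMSO in control morphants (20420 genes), changes were planted in genes with a mean of at least 1 CPM. The counts were drawn from the same kind of model as the fit. Of the planted changes, 84% of 2-fold and 100% of 4-fold were recovered, and 9 calls (4.66% of calls) were false. The members and the gene lists were chosen with earlier results of these data known, although the members are defined by identifier or symbol alone. Genes named from a list were those called, up to 4 by smallest p, or the single smallest p where none was called; POR was named after its values were seen; genes alike were the 5 with the highest r, a mean of at least 1 CPM and a symbol. Alternatives were DESeq2 1.42.0, limma-voom (limma 3.58.1), other normalisations and filters, a replicate block, a covariate, the 8 samples of a contrast alone, and each library left out. The labels call the samples biological replicates. No 2 of the 120 pairs of libraries were identical.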

Additional observations from a re-analysis of the deposited data

Results flagged for a closer look

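The level of cyp1d1 in slincR DMSO replicate 1 was 18.9 CPM, below the other 3 samples of its group at 22.4 to 22.9 CPM. The gap to its nearest neighbour was 0.882 of the group's range. Of 20 groups of values checked, 1 stood out in this way, and chance gives about 1 in 20.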

How the results depend on the processing

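In both TCDD contrasts the same 4 members were called under all 25 alternatives. Counts over all genes moved more. In slincR morphants TCDD called 165 genes with DESeq2, 130 with each library's share of reads outside genes as covariate, 125 with only the 8 samples of the contrast and 61 to 114 with 1 library left out. In control morphants it called 257, 283, 69 and 70 to 155 in the same order. For slincR against control morphants in TCDD the counts were 248, 286, 180 and 22 to 115. In DMSO they were 95, 99, 17 and 17 to 52, and 54 with no low count filter. The difference of responses stayed at 0 in each fit, leave-one-out fits included. With the replicate block 86 genes were called in slincR and 108 in control morphants. No pairing by replicate number was seen (r of −0.24 to 0.18 between samples with the same number). With 4 pairs per contrast these values cannot exclude a pairing. Under the block cyp24a1 and gchfr lost their calls in control morphants (edgeR adjusted p = 0.0527 and 0.0546). Values near 0 changed sign without a call. For the cyp1b1 difference these were −1.0e-04 with DESeq2, −2.6e-05 with RLE size factors, −0.00296 with library totals, −0.00228 with the covariate and −0.11 to 0.11 with 1 library left out. TNNI3K in control morphants gave −0.00778 with limma-voom, −0.00732 with the replicate block and −0.19 to 0.24 with 1 library left out. With 1 library left out, cyp1d1 in control morphants ran from −0.082 to 0.023, the cyp1c1 difference from −0.13 to 0.018, cyp1b1 between morphants in DMSO from −0.19 to 0.029, DYRK2 in slincR morphants from −0.12 to 0.061 and PRICKLE2 from −0.11 to 0.023. The cause was not tested. Ratio pairs called fell to 0 of 10 without a replicate number, because 3 samples against 3 cannot go below an exact permutation p of 0.1. With a pseudocount of 2 CPM the log2 ratio of cyp1b1 to cyp1c2 in slincR morphants shifted by −0.70 and missed the threshold (exact permutation p = 0.0571). The response-element alternative was not run. Low counts limit the DMSO values of cyp1c2, at 60 to 113 reads a library.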
